A study of Homo sapiens with 54 samples.

Results

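CD55, CD46, CD59, C3, CFB, CFI, C1R and C1S are 8 of the 59368 genes in the deposited gene tables, of which 48910 had a count in at least 1 library. They were chosen by symbol as complement components and complement regulators, and CD55 was picked because it was higher under 5-FU in sensitive HT-29 cells. Its values in that contrast are therefore given as a description, with no test. Of the 8 genes, all were tested in HT-29 and HCT-116, and 7 in DLD-1, where CFI was removed by the filter on low counts.

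RNA was sequenced from 3 established lines of human colorectal carcinoma (DLD-1, HCT-116, HT-29), each in a 5-FU-sensitive and a 5-FU-resistant form. The resistant lines were raised by long culture in rising 5-FU and kept in medium with 5-FU. The sources used here do not give whether 5-FU was withdrawn before the uracil treatment, or whether the resistant cells are single clones. Sensitive and resistant cells received 10 µM uracil (the control), 10 µM 5-FU, or 10 µM 5-FU followed by X-ray irradiation at the half-lethal dose of each line. Drug exposure lasted 24 h. 5-FU, a fluorinated pyrimidine, blocks thymidylate synthase and is built into RNA and DNA. Each of the 18 conditions had 3 replicates, 54 libraries in all. The study's methods call the replicates biological, and the labels do not say whether they were separate cultures. If they were not, p-values measure only the spread between these samples, which may be technical.

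Complement is a cascade of plasma proteases that ends in pores in the membrane of a target cell. C1r and C1s are the proteases that start the classical pathway, C3 is the central component on which the pathways converge, and factor B is the protease of the alternative pathway. Factor I is a plasma protease that cleaves C3b and C4b with the help of cofactors. Cells of the body carry surface regulators against their own complement: CD55 (decay-accelerating factor) dissociates the C3 convertases, CD46 (membrane cofactor protein) is a cofactor for factor I, and CD59 (protectin) blocks assembly of the membrane attack complex. CD55 and CD59 are held in the membrane by a glycosylphosphatidylinositol (GPI) anchor, whereas CD46 spans the membrane. Epithelial tumour cells commonly display all of these surface regulators.

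Total estimated counts ranged from 38957142 to 218518344 per library with a median of 51373543, and the highest was replicate 2 of sensitive DLD-1 under uracil. The second highest was 86673615. All 8 epithelial markers examined reached 1 TPM (kallisto's expression level, corrected for transcript length and library depth) and 6 did so in every library, while PTPRC, the pan-leukocyte marker, stayed at or below 0.898 TPM. Of 10 leukocyte, 6 fibroblast and 4 endothelial markers, 5, 3 and 1 reached 1 TPM in a library, and the summed levels without LYZ stayed at or below 25.7, 31.4 and 5.43 TPM. LYZ (lysozyme), made by myeloid cells and also by secretory cells of the gut epithelium, reached 1685 TPM. With it the leukocyte sum was 1430 to 1711 TPM in sensitive HT-29 and at most 20.8 TPM in all other libraries, and its part in the results was not tested. The 9 libraries labelled resistant HT-29 went against their label. Each held at least 1 TPM of 62 of 64 genes that mark HCT-116 among the sensitive lines, of 0 of 12 that mark HT-29 and of 0 of 20 that mark DLD-1. A marker had a mean of at least 10 TPM in 1 sensitive line under uracil and at most 0.1 in the others. These libraries are called labelled resistant HT-29 throughout, and in their comparison with sensitive HT-29 the line and the resistance cannot be told apart.

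CD55 (ENSG00000196352) lies on chromosome 1 from 207321519 to 207386804 on the forward strand, and CD46 (ENSG00000117335) lies in the same cluster of complement regulators from 207752037 to 207795513 on the same strand. CD59 (ENSG00000085063) is on chromosome 11 from 33703010 to 33736479 on the reverse strand, and C3 (ENSG00000125730) on chromosome 19 from 6677704 to 6730562 on the reverse strand. CFB (ENSG00000243649) lies on chromosome 6 from 31945650 to 31952086 on the forward strand, in the major histocompatibility complex. CFI (ENSG00000205403) lies on chromosome 4 from 109731008 to 109802150 on the reverse strand. C1R (ENSG00000159403) and C1S (ENSG00000182326) are neighbours on chromosome 12, from 7080214 to 7092540 on the reverse strand and from 6988259 to 7071032 on the forward strand. These positions are those of GENCODE 44 on GRCh38.

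The promoters of CD55, CD59 and CFB are shown because these genes were called higher in sensitive HT-29 cells given 5-FU and irradiation. Each window runs from 250 bases before to 50 bases after a RefSeq transcription start on GRCh38.p14, written 5′ to 3′ on the strand of the gene, with all motif matches in capitals. CD59 had 4 such windows, of which the first is printed.
CD55, chr1:207321428-207321727, forward strand: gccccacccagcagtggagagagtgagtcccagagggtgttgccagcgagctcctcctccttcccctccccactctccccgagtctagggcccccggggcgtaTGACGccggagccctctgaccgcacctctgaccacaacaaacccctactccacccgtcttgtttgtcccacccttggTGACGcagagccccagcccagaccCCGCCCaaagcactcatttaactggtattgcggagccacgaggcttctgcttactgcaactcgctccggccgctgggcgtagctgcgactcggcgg
CD59, chr11:33736430-33736729, reverse strand: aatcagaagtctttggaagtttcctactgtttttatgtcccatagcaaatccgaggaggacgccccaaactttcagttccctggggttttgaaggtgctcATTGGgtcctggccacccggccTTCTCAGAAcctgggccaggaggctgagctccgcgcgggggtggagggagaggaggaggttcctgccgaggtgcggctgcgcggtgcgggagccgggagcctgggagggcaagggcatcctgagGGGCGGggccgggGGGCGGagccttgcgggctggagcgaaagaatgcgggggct
CFB, chr6:31945845-31946144, forward strand: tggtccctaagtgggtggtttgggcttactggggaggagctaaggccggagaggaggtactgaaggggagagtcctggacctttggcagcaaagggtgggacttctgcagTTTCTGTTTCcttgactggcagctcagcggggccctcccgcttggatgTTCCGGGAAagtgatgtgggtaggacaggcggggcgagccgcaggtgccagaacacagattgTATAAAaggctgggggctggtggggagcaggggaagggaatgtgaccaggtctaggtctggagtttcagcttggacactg

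The CD55 window held 2 copies of the cAMP response element half-site TGACG, from bases 104 and 181, and 1 GC box GGGCGG, read on the other strand from base 205. The CD59 window held the interferon gamma activated site TTCNNNGAA from base 123, 2 GC boxes from bases 247 and 260, and 1 CCAAT box on the other strand from base 101. In the CFB window the same activated site began at base 159, the core of the interferon stimulated response element at base 111 and a TATA box (TATAAA) at base 221. Both strands were searched, positions count from base 1 of the window, and no matches of different motifs overlapped in these windows. Over all 35116 promoter windows of that length, 24.6% held TGACG, 7.66% TTCNNNGAA, 3.57% the core of the interferon stimulated response element, 45.0% GGGCGG, 34.6% CCAAT and 11.5% TATAAA. A match is only a run of letters and no binding was measured. RefSeq windows were found for 6 of the 8 genes. Some of these motifs also occurred in members that were not called higher. Both CD46 windows held TGACG, GC boxes and a CCAAT box. C1R window 1 held TGACG and C1R window 2 held TTCNNNGAA. CD59 windows 3 and 4, which are not printed, held neither TTCNNNGAA nor a GC box.

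CD55, picked for its rise in sensitive HT-29, had the largest difference among the 8 there, and nothing is read from that rank. Under uracil its level was 43.0, 45.5 and 42.6 TPM in the 3 libraries. With 5-FU it was 302, 282 and 288 TPM, and with 5-FU and irradiation 273, 292 and 280 TPM. Every treated library lay far above the uracil libraries, and the drug groups overlapped each other. The mean went from 43.7 ± 1.55 to 291 ± 10.6 TPM (SD, n = 3 each), a ratio of 6.65. The fitted log2 fold change on counts was 2.48 (SE, an approximate standard error from the fit, 0.06), given as a description. For 5-FU with irradiation against uracil the mean was 282 ± 9.81 TPM and the log2 fold change 2.46 (SE 0.06, adjusted p = 3.09e-21). Here and below, adjusted p-values come from the quasi-likelihood test of edgeR, corrected over all genes by the Benjamini-Hochberg method. That test used other treated libraries but the same uracil libraries as the contrast for which CD55 was picked. 5-FU with irradiation was not called different from 5-FU alone (log2 fold change -0.02, SE 0.05, adjusted p = 1). That comparison uses the 5-FU libraries for whose level CD55 was picked, so nothing is read from it. In bulk libraries, more expressing cells and more RNA per cell cannot be told apart.

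**Figure D1:**
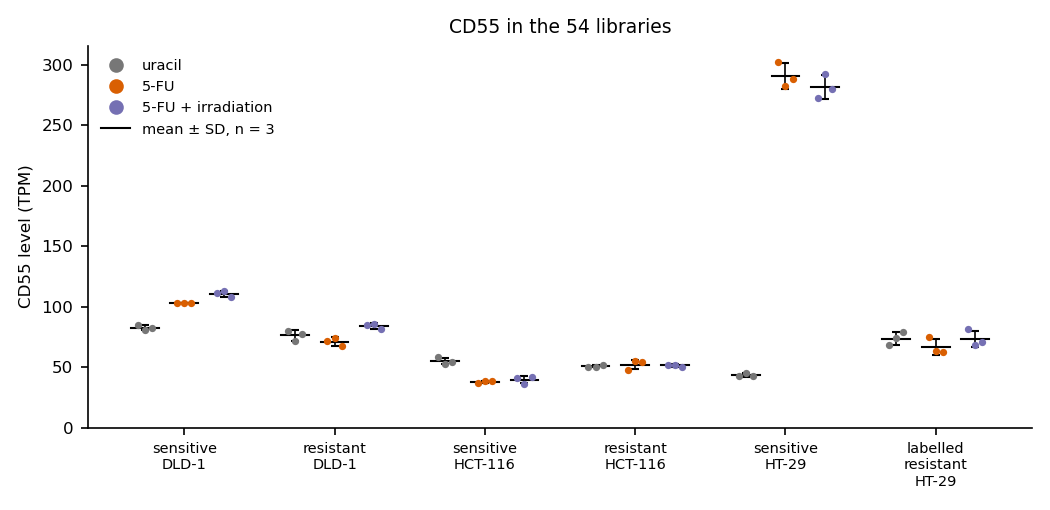
CD55 level in TPM in each library (points) with the mean and SD of the 3 replicates, by condition and cell line, sensitive and resistant. The 6 drug-treated sensitive HT-29 libraries lie between 273 and 302 TPM, and the other 48 libraries between 36.2 and 113 TPM.

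In the other sensitive lines CD55 differed from uracil in opposite directions and by less than 2-fold. In DLD-1 the uracil libraries stood at 85.1, 80.6 and 82.1 TPM and the 5-FU libraries at 103, 103 and 103 TPM, so that the groups did not overlap. The log2 fold change was 0.23 (SE 0.05, adjusted p = 0.000258), and with irradiation it was 0.31 (adjusted p = 8.26e-06) at 111, 113 and 108 TPM. In HCT-116 the uracil libraries held 58.2, 52.8 and 54.3 TPM and the 5-FU libraries 36.9, 38.2 and 38.6 TPM, again without overlap and in the lower direction. The log2 fold change was -0.52 (SE 0.05, adjusted p = 2.63e-08), and with irradiation -0.46 (adjusted p = 1.79e-07) at 41.3, 36.2 and 41.7 TPM. The response of HCT-116 minus that of DLD-1 was -0.75 on the log2 scale (SE 0.08, adjusted p = 7.27e-11). None of these values reached the 2-fold threshold that was required, beside an adjusted p of at most 0.01, to count a gene as changed.

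In the resistant lines CD55 was not called changed with 5-FU. Resistant DLD-1 cells held 79.9, 71.3 and 77.6 TPM under uracil and 71.6, 74.4 and 67.4 TPM under 5-FU, overlapping groups with a log2 fold change of -0.02 (adjusted p = 0.845). Irradiation on top of 5-FU brought 84.8, 85.7 and 81.3 TPM, 0.22 above 5-FU alone on the log2 scale (SE 0.05, adjusted p = 0.0055). Resistant HCT-116 cells held 50.5, 50.2 and 51.7 TPM under uracil and 47.4, 55.1 and 53.9 TPM under 5-FU (log2 fold change -0.03, adjusted p = 0.907). The libraries labelled resistant HT-29 held 68.3, 73.7 and 78.7 TPM under uracil and 74.5, 63.4 and 62.8 TPM under 5-FU (log2 fold change -0.12, adjusted p = 0.935). The 5-FU response of resistant cells differed from that of sensitive cells by -0.26 in DLD-1 (SE 0.07, adjusted p = 0.00452) and by 0.49 in HCT-116 (SE 0.07, adjusted p = 1.61e-05), both on the log2 scale.

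Across the 18 conditions the mean level of CD55 spanned 37.9 to 291 TPM, a 7.67-fold range. In the order of the means, sensitive HT-29 with 5-FU and with 5-FU and irradiation came first and overlapped. Sensitive DLD-1 with irradiation (111 ± 2.60 TPM) and with 5-FU (103 ± 0.167 TPM) followed, neither overlapping its neighbours. The other DLD-1 groups and the libraries labelled resistant HT-29 came next, between 83.9 and 66.9 TPM, mostly overlapping. The HCT-116 groups and untreated sensitive HT-29 were at the bottom, with sensitive HCT-116 under 5-FU lowest at 37.9 ± 0.877 TPM. Of 17 pairs of neighbours, 7 did not overlap.

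Among the genes whose level was most like that of CD55 over the 18 conditions were AL606834.1 (r = 0.96), TMEM41B (r = 0.96), KLHL7 (r = 0.96) and TSC22D2 (r = 0.95), by Pearson's r of log2(mean TPM + 1) among 14238 genes that reached a mean of 5 TPM. Over the 15 conditions without the libraries labelled resistant HT-29 these values were 0.97, 0.97, 0.96 and 0.96. Among the 8 genes CD59 was the nearest to CD55 (r = 0.79, 18 conditions) and C1S the most opposed (r = -0.54). The conditions share cell lines and treatments. They also include the groups for which CD55 was picked, and its mean was highest in 1 of these, sensitive HT-29 with 5-FU (291 TPM). All of these values of r are therefore descriptions, and nothing is read from them.

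CD59 was 2-fold or more higher in the same drug-treated HT-29 libraries and differed less elsewhere. In sensitive HT-29 it stood at 231, 240 and 230 TPM under uracil, at 631, 654 and 658 TPM with 5-FU and at 611, 656 and 644 TPM with 5-FU and irradiation. No treated library came near the uracil libraries. The fitted log2 fold change was 1.21 (SE 0.04) for 5-FU, as a description, and 1.15 (SE 0.04, adjusted p = 2.36e-17) for 5-FU with irradiation, which rests on the same uracil libraries. Sensitive HCT-116 cells held 148, 131 and 141 TPM under uracil and 185, 188 and 186 TPM with 5-FU, a separate and higher group (log2 fold change 0.50, SE 0.05, adjusted p = 2.54e-08). With irradiation they held 203, 191 and 197 TPM (log2 fold change 0.59, adjusted p = 2.18e-09).

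In sensitive DLD-1 the direction of CD59 depended on the scale. TPM values were 175, 170 and 170 under uracil and 184, 181 and 183 under 5-FU, higher in every library, whereas the count-based log2 fold change with TMM scaling was -0.08 (SE 0.04, adjusted p = 0.0964). The HCT-116 response exceeded the DLD-1 response by 0.59 on the log2 scale (SE 0.07, adjusted p = 2.74e-10). In resistant HCT-116 cells CD59 stood at 94.0, 91.6 and 108 TPM under uracil, below the sensitive cells by 0.52 on the log2 scale (SE 0.05, adjusted p = 2.13e-08), and at 95.2, 99.2 and 107 TPM with 5-FU (log2 fold change 0.01, adjusted p = 0.967). Its 5-FU response in resistant HCT-116 was lower than in sensitive cells by 0.49 (adjusted p = 1.14e-05). Resistant DLD-1 cells held between 156 and 182 TPM in all 9 libraries.

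CD46 was lower with 5-FU in sensitive DLD-1 and higher in sensitive HCT-116, by less than 2-fold in each. In sensitive DLD-1 it was 213, 205 and 206 TPM under uracil and 169, 164 and 170 TPM with 5-FU, every treated library lying lower (log2 fold change -0.43, SE 0.05, adjusted p = 7.56e-07). With irradiation the values were 176, 179 and 181 TPM (log2 fold change -0.36, adjusted p = 6.58e-06). In sensitive HCT-116 the order was opposite, with 74.8, 79.5 and 76.3 TPM under uracil, 88.2, 95.9 and 96.5 TPM with 5-FU (log2 fold change 0.36, SE 0.04, adjusted p = 4.65e-07) and 107, 101 and 99.9 TPM with irradiation. The HCT-116 response exceeded that of DLD-1 by 0.80 on the log2 scale (SE 0.07, adjusted p = 7.64e-14). Sensitive HT-29 held 193, 189 and 201 TPM under uracil and 240, 227 and 225 TPM with 5-FU, higher in every library on the TPM scale (ratio 1.19). On counts the fitted log2 fold change was only -0.03 (SE 0.04), and for 5-FU with irradiation -0.06 (adjusted p = 0.172).

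The 5-FU response of CD46 in resistant cells differed from that of sensitive cells in both DLD-1 and HCT-116. Resistant DLD-1 held 248, 190 and 196 TPM under uracil and 225, 228 and 226 TPM with 5-FU, overlapping because of replicate 1 under uracil (log2 fold change 0.16, adjusted p = 0.0898). The response exceeded that of sensitive DLD-1 by 0.59 on the log2 scale (SE 0.07, adjusted p = 2.71e-06). In resistant HCT-116, with 75.2, 69.7 and 69.0 TPM under uracil and 70.0, 69.0 and 72.4 TPM with 5-FU, the response was 0.43 below that of sensitive cells (fitted difference -0.43, SE 0.06, adjusted p = 9.79e-06). The basal level of CD46 set HCT-116 apart from the other sensitive lines. Sensitive DLD-1 and HT-29 were close under uracil, at means of 208 and 194 TPM, though their libraries did not overlap. Under uracil the count-based log2 fold change was -1.95 for HCT-116 against DLD-1 (SE 0.05, adjusted p = 6.60e-36) and 1.99 for HT-29 against HCT-116 (SE 0.05, adjusted p = 2.04e-36). The libraries labelled resistant HT-29, at 64.3, 69.6 and 67.0 TPM under uracil, were 0.26 below sensitive HCT-116 on the log2 scale (fitted log2 fold change -0.26, adjusted p = 2.59e-05) and far below sensitive HT-29 (log2 fold change -2.26, SE 0.04, adjusted p = 9.11e-26).

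**Figure D2:**
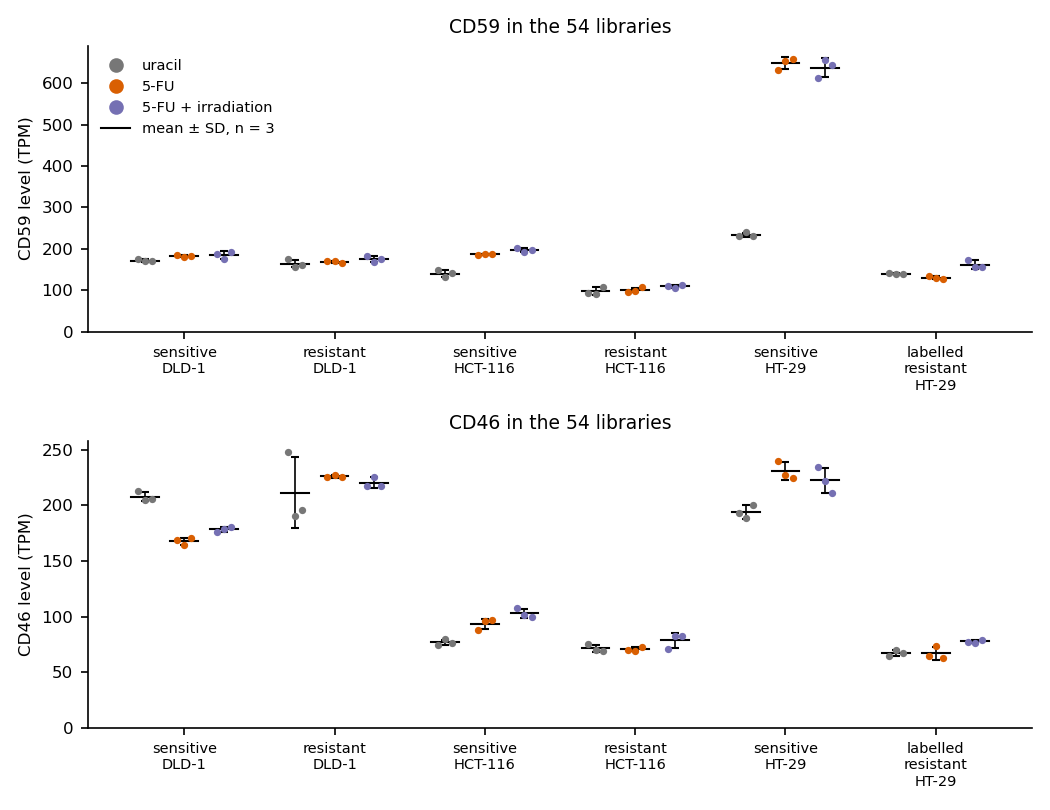
CD59 and CD46 levels in TPM in each library (points), with the mean and SD of 3 replicates, by condition and cell line. CD59 reaches 611 to 658 TPM in drug-treated sensitive HT-29, and CD46 is lowest in HCT-116 and among libraries labelled resistant HT-29.

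CD46 transcripts differ by cassette exons, which are shown because their estimated use varied between the lines. The exon is in capitals and flanking intron bases in lower case, on GRCh38 and the forward strand.
CD46 exon of the serine, threonine and proline-rich (STP) region, chr1:207767779-207767823: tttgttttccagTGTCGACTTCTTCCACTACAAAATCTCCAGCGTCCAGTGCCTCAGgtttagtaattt
CD46 cytoplasmic tail exon, coding bases, chr1:207790253-207790301: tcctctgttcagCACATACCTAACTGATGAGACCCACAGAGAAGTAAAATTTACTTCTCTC

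The STP exon is 45 bases long and codes for part of the O-glycosylated stem of CD46. The tail exon is 93 bases long, of which 49 are coding, and selects between the alternative cytoplasmic tails known as CYT-1 and CYT-2. Use of an exon was taken as the percent of TPM in transcripts with the exon, among transcripts that hold both flanking exons. Kallisto estimates transcript levels by dividing reads among transcripts, so these values were described with no test. Of the transcripts of CD46 in the tables, 15 of 19 had the same length in GENCODE 44, as had 12 of 13 of CD55.

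The STP exon was used most in DLD-1, and its use was lower under 5-FU than under uracil in all libraries of each sensitive line. In sensitive DLD-1 its use was 84.3% ± 0.225 under uracil, 75.8% ± 0.584 with 5-FU and 77.4% ± 0.952 with irradiation (SD, n = 3 each), and the uracil and treated groups did not overlap. In resistant DLD-1 it was 85.4% ± 1.41 under uracil and 84.0% ± 0.724 with 5-FU. Sensitive HCT-116 went from 58.1% ± 1.75 to 53.2% ± 0.708 and 50.9% ± 1.88, and sensitive HT-29 from 43.4% ± 1.35 to 39.9% ± 2.16 and 41.2% ± 1.83. In HT-29 the lowest uracil library, at 42.6%, lay above the highest 5-FU library, at 42.1%, but below the highest irradiated library, at 43.2%. The libraries labelled resistant HT-29 ranged from 44.3% to 64.3%. Transcripts with both flanks held 49.7% to 58.8% of the CD46 TPM in HCT-116 and 75.6% to 83.2% in DLD-1.

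The tail exon was used less in HCT-116 than in DLD-1. Its use lay between 17.7% and 27.1% in the 18 HCT-116 libraries, between 31.8% and 39.4% in the 18 DLD-1 libraries and between 29.1% and 33.8% in sensitive HT-29. The first and second of these ranges did not overlap. In sensitive HCT-116 its use was 19.4% ± 1.74 under uracil, 24.1% ± 2.18 with 5-FU and 22.8% ± 1.09 with irradiation, and the treated libraries all lay above the uracil libraries. In sensitive DLD-1 and HT-29 the uracil and 5-FU groups overlapped, at means of 32.6% to 33.3%. With irradiation its use in sensitive HT-29 was 30.3% ± 1.31 (29.1% to 31.7%), below each of the uracil libraries (32.3% to 33.5%). Irradiated sensitive DLD-1, at 34.6% ± 2.43, overlapped its uracil libraries. Resistant DLD-1 cells under uracil used the exon more than sensitive cells, at 38.4% ± 0.976 against 33.3% ± 0.512, without overlap. A short transcript, CD46-210 of 473 bases, held 18.9% to 34.2% of the CD46 TPM in HCT-116, against 18.9% to 30.2% among those labelled resistant HT-29. In sensitive HT-29 it held at most 1.04% and in DLD-1 at most 2.89%.

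**Figure D3:**
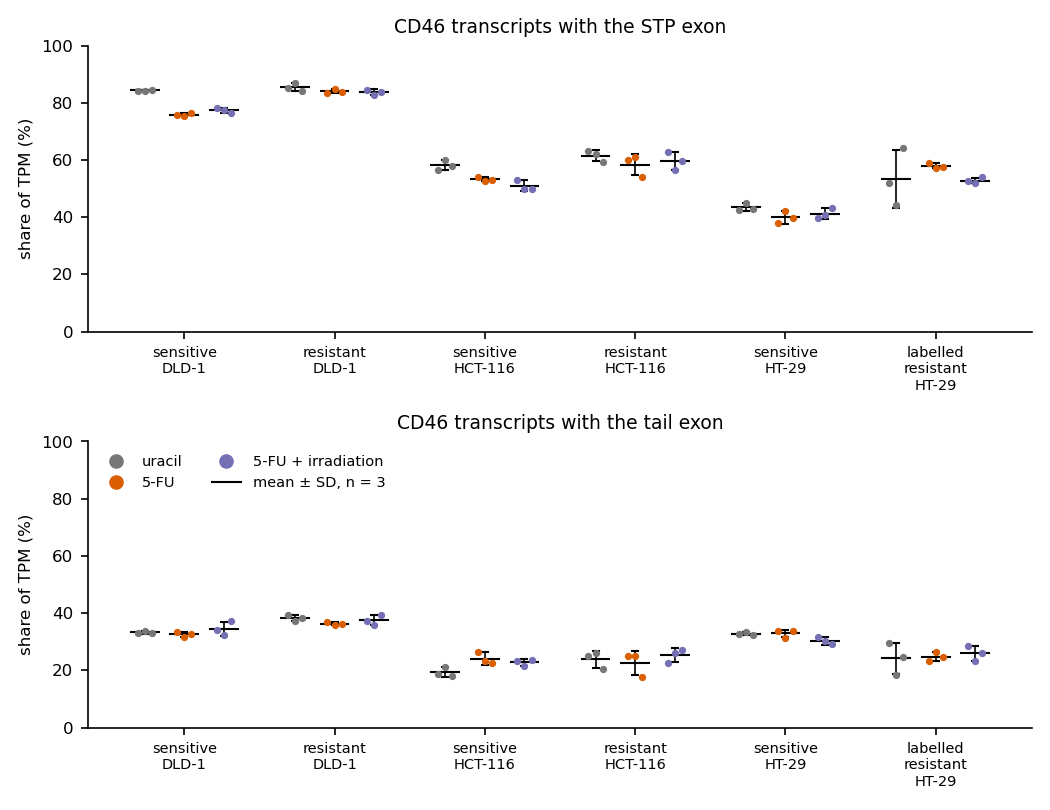
Use of the STP exon and the tail exon of CD46 (percent of TPM among transcripts with both flanking exons) in each library, with the mean and SD of 3 replicates, by condition. DLD-1 lies between 75.3% and 87.0% for the STP exon, and in its sensitive cells the treated libraries lie below the uracil libraries.

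CD55 TPM was spread over several transcripts, with CD55-201, CD55-202 and CD55-205 at means of 24.5% to 35.9%, 16.7% to 29.2% and 22.5% to 28.4% over the 18 conditions. For CD59, transcript CD59-213 held at most 9.11% of the gene TPM in DLD-1 and at least 11.8% in HCT-116.

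The secreted components were measured at much lower levels than the surface regulators. CFB was the one among them that was at least 2-fold higher in drug-treated sensitive HT-29. It stood at 1.94, 1.70 and 1.91 TPM under uracil, at 4.35, 5.15 and 5.02 TPM with 5-FU and at 5.58, 5.02 and 4.86 TPM with irradiation, with no overlap between uracil and treated libraries. The fitted log2 fold change was 1.42 (SE 0.14) for 5-FU, as a description, and 1.52 (SE 0.14, adjusted p = 1.01e-09) for 5-FU with irradiation, against the same uracil libraries. Counts behind these values were 47 to 100 per uracil library and 183 to 346 per treated library. Sensitive HCT-116 cells held 1.23, 1.33 and 0.974 TPM under uracil and 2.17, 1.93 and 1.53 TPM with 5-FU, separate groups with a log2 fold change of 0.99 (SE 0.21, adjusted p = 0.000335), just under the 2-fold threshold. In sensitive DLD-1 the groups overlapped, at 1.27 ± 0.101 and 1.34 ± 0.474 TPM (log2 fold change -0.02, adjusted p = 0.961).

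The difference between these responses of CFB, HCT-116 minus DLD-1, was 1.01 on the log2 scale (SE 0.30, adjusted p = 0.00683), and it passed the 2-fold threshold so narrowly that it fell to 0.99 with library size alone and to 0.78 (adjusted p = 0.134) without replicate 1. Resistant HCT-116 cells held 1.92, 3.05 and 2.68 TPM of CFB under uracil, above the sensitive cells (log2 fold change 1.22, SE 0.21, adjusted p = 3.61e-05), and 2.10, 1.54 and 2.87 TPM with 5-FU (log2 fold change 0.00, adjusted p = 0.997). The 5-FU response of resistant HCT-116 was 0.99 lower than that of sensitive cells (fitted difference -0.99, SE 0.28, adjusted p = 0.00698). The reference transcript CFB-271 held 15.2% to 30.0% of the CFB TPM in sensitive HT-29, 2.99% to 18.2% in HCT-116 and at most 11.3% in DLD-1.

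C3 was low in every line and lowest in sensitive HT-29. Its level under uracil was 1.87, 2.29 and 2.14 TPM in sensitive DLD-1, 2.42, 1.84 and 1.52 TPM in sensitive HCT-116 and 0.574, 0.386 and 0.569 TPM in sensitive HT-29. No 5-FU group of sensitive cells was called different from uracil in DLD-1 (log2 fold change -0.31, adjusted p = 0.0263) or HCT-116 (log2 fold change -0.03, adjusted p = 0.890). On counts the log2 fold change of HT-29 against DLD-1 was -4.27 (SE 0.19, adjusted p = 1.33e-25), a larger gap than the TPM ratio of 0.243. Beside this, the full-length transcript C3-201 of 5231 bases held a median of 59.5% of the C3 TPM in DLD-1, against 31.2% for HCT-116 and 2.54% for sensitive HT-29, and its part in the difference between the scales was not tested. Counts of C3 in sensitive HT-29 were 7 to 19 per library.

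Resistant HCT-116 cells had fewer C3 counts than sensitive cells under uracil, 59 to 96 against 157 to 187 per library (log2 fold change -1.18, SE 0.16, adjusted p = 1.52e-06), although the TPM values of the groups overlapped, at 1.29 ± 0.463 and 1.92 ± 0.457. In resistant DLD-1, replicate 1 under uracil was high at 4.54 TPM against 2.24 and 2.17 in the others, while its count of 280 equalled that of replicate 3 and replicate 2 had 246. Irradiation on top of 5-FU left C3 higher in resistant DLD-1 by 0.67 on the log2 scale (SE 0.11, adjusted p = 0.000839), with overlapping TPM values. The genes most like C3 over the 18 conditions were LHX6 (r = 0.93), DCAF4 (r = 0.93), MRPS9 (r = 0.92), NEK6 (r = 0.92) and ARHGAP44 (r = 0.92), by the same measure as for CD55.

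CFI was close to the limit of detection in most conditions. Mean levels ran from 0.0121 to 0.560 TPM, and in resistant DLD-1 under uracil the counts were 0, 1 and 1, at the floor of 3 counts per library. Sensitive HCT-116 had the highest levels, with 19, 16 and 8 counts under uracil, 24, 37 and 42 with 5-FU and 20, 43 and 27 with irradiation. These groups did not overlap with uracil, yet the differences did not pass the adjusted p (log2 fold change 0.93, adjusted p = 0.0229 for 5-FU, and 1.01, adjusted p = 0.0151 with irradiation). Resistant HCT-116 cells under uracil had 6, 7 and 4 counts, below the sensitive cells (log2 fold change -1.40, SE 0.42, adjusted p = 0.00759). This call rests on few counts and was lost with DESeq2 (adjusted p = 0.0209), with no filter on low counts (0.0166), with library size alone (0.0106), with the replicate block (0.0106) and without any of 5 of the 6 libraries, up to an adjusted p of 0.0585 without replicate 1 of the sensitive cells.

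Under 5-FU in sensitive HCT-116, 5 of 8 members passed the adjusted p alone, a count with no share of all genes beside it, from which nothing is read. C1R was the only member that edgeR also placed past 2-fold, and it was lower. The uracil libraries held 2.95, 3.18 and 3.07 TPM, the 5-FU libraries 1.36, 1.17 and 1.34 TPM and the irradiated libraries 2.11, 0.979 and 1.45 TPM, all treated libraries below all uracil libraries. The log2 fold change was -1.26 for 5-FU (SE 0.18, adjusted p = 2.69e-06) and -1.19 with irradiation (SE 0.18, adjusted p = 7.77e-06). Sensitive DLD-1 differed in the other direction, with 1.49, 1.5 and 1.71 TPM under uracil, 2.11, 2.26 and 2.50 TPM with 5-FU (log2 fold change 0.44, adjusted p = 0.0470) and 2.98, 2.44 and 2.66 TPM with irradiation (log2 fold change 0.85, SE 0.17, adjusted p = 0.000366). The response of HCT-116 minus that of DLD-1 was -1.70 on the log2 scale (SE 0.24, adjusted p = 1.04e-07). Sensitive HT-29 held 0.140 to 0.214 TPM of C1R under uracil and 0.228 to 0.384 TPM in treated libraries, from 15 to 39 counts.

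In the resistant cells of both lines the fitted 5-FU response of C1R had the opposite sign to that of the sensitive cells. Resistant HCT-116 held 1.07, 0.554 and 1.57 TPM under uracil, below the sensitive cells (log2 fold change -1.36, SE 0.18, adjusted p = 1.48e-06), and 1.43, 0.973 and 1.15 TPM with 5-FU (log2 fold change 0.27, adjusted p = 0.723). Its 5-FU response exceeded that of sensitive cells by 1.53 on the log2 scale (SE 0.26, adjusted p = 5.59e-05). Resistant DLD-1 held 1.74, 0.977 and 0.909 TPM under uracil and 0.946, 0.432 and 0.673 TPM with 5-FU, overlapping groups (log2 fold change -0.65, adjusted p = 0.113). Its 5-FU response was lower than that of sensitive DLD-1 (difference -1.08, SE 0.28, adjusted p = 0.00492). This call was lost without any 1 of 5 libraries (replicate 2 of sensitive uracil, replicate 3 of sensitive 5-FU, replicate 1 of resistant uracil, and replicate 2 or 3 of resistant 5-FU), with a lowest size of -0.79 (adjusted p = 0.0172) without the first replicate of resistant uracil.

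C1S and C1R differed in direction in HCT-116. Sensitive HCT-116 held 2.14, 2.69 and 1.77 TPM under uracil and 3.05, 2.41 and 2.27 TPM with 5-FU, overlapping groups (log2 fold change 0.32, adjusted p = 0.0305). Resistant HCT-116 had 5.00, 4.05 and 3.26 TPM under uracil, every library above the sensitive cells (log2 fold change 0.997, SE 0.12, adjusted p = 2.46e-07, just under the 2-fold threshold), in the same cells in which C1R was lower. The 5-FU response of C1S, HCT-116 minus DLD-1, was 0.83 (SE 0.21, adjusted p = 0.00157). In sensitive DLD-1 it held 1.10, 0.982 and 0.897 TPM under uracil and 0.998, 0.646 and 0.587 TPM with 5-FU (log2 fold change -0.52, adjusted p = 0.0577).

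**Figure D4:**
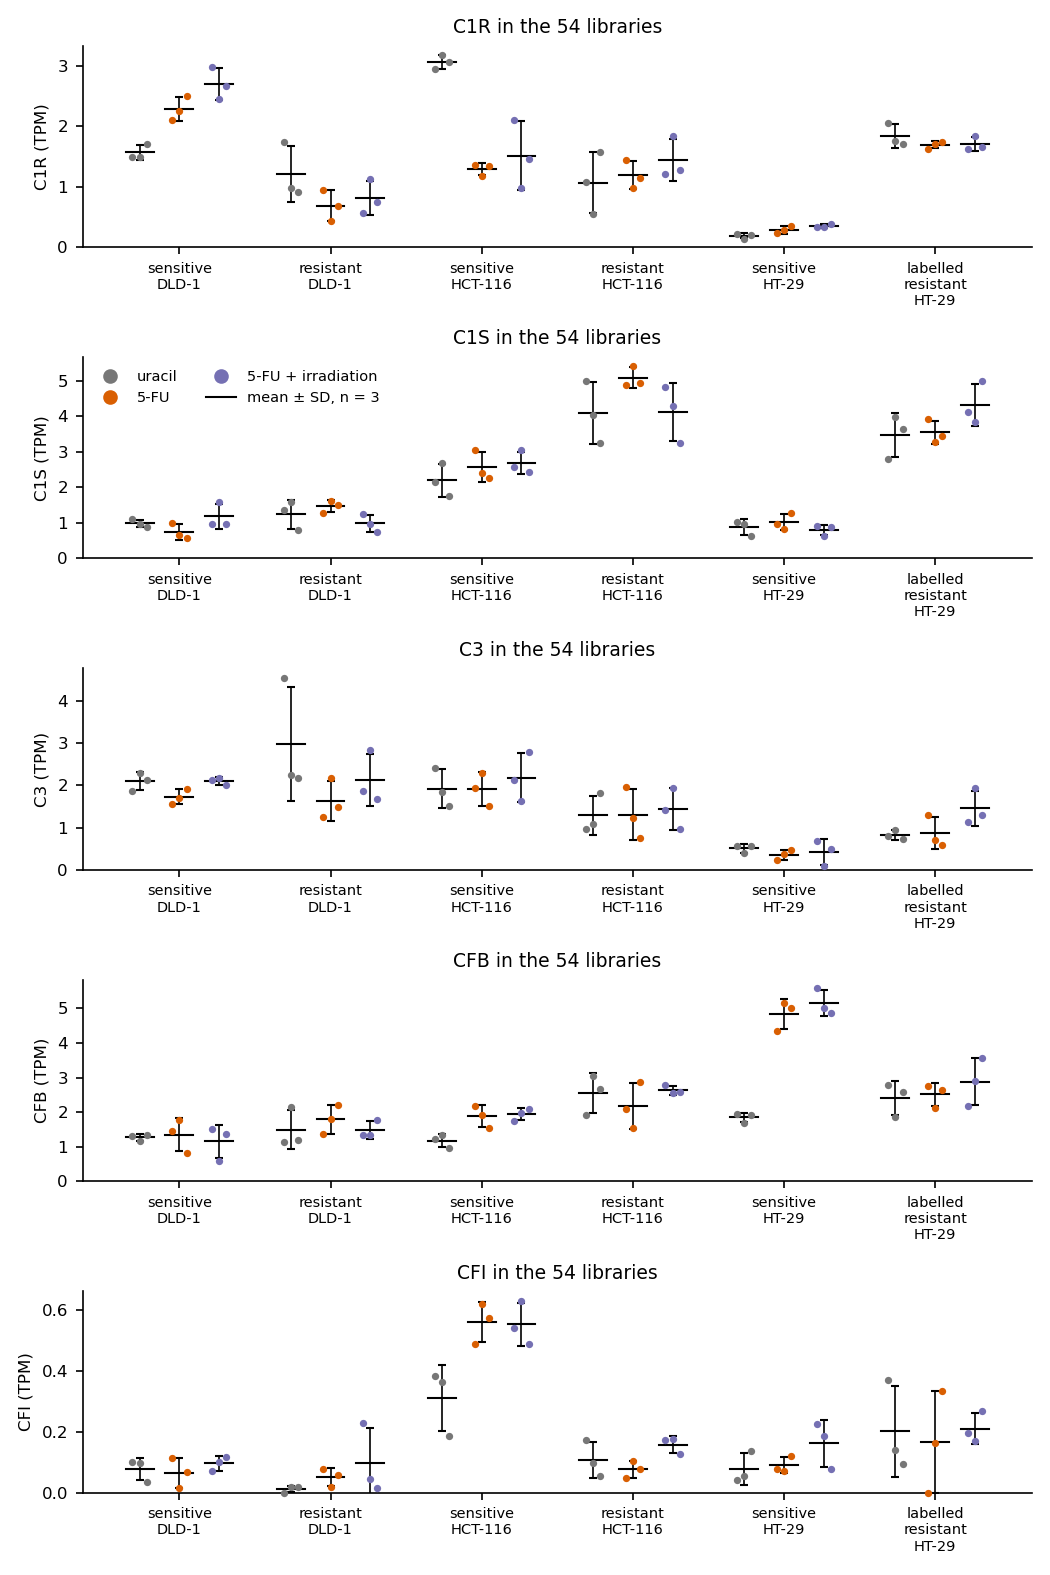
Levels of C1R, C1S, C3, CFB and CFI in TPM in each library (points), with the mean and SD of 3 replicates, by condition and cell line, each gene on its own axis. CFB is highest in drug-treated sensitive HT-29 (4.35 to 5.58 TPM), and C1R in sensitive HCT-116 lies at 2.95 to 3.18 TPM under uracil and at 0.979 to 2.11 TPM in the treated libraries.

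In sensitive DLD-1 and HCT-116 edgeR called at most 1 member changed under 5-FU. Of 7 members tested in sensitive DLD-1, 0 were called with edgeR for 5-FU against uracil, beside 4.02 percent of all genes, and 0 for 5-FU with irradiation against uracil, beside 4.61 percent. At an unadjusted p under 0.05 the members numbered 6 and 5, and DESeq2 called 0 and 0. Beside such shares, a count of 0 of 7 says little about the members. Here and below, no share of all genes was taken at an unadjusted p, so nothing is read from those counts. In sensitive HCT-116, 1 of 8 was called for 5-FU against uracil (8.14 percent of all genes) and 1 of 8 with irradiation (8.38 percent), C1R in both. DESeq2 called 2 and 2 there, with CFB added. In sensitive HT-29, 3 of 8 (CD55, CD59 and CFB) were called higher for 5-FU with irradiation against uracil, beside 12.2 percent of all genes. For 5-FU against uracil the same 3 lay past 2-fold, beside 18 percent of all genes. Nothing is read from either count, because both use the uracil libraries on which CD55 was picked. The next member in size was C1S, with a log2 fold change of 0.59.

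No member was called for irradiation added to 5-FU. For 5-FU with irradiation against 5-FU alone, edgeR called 0 of 7 members in sensitive DLD-1 and 0 of 8 in each of sensitive HCT-116 and HT-29, beside 0, 0 and 0.00842 percent of all genes, with 1 each at an unadjusted p under 0.05 and 0 by DESeq2 in each. In resistant cells the same comparison called 0 of 7 in DLD-1 and 0 of 8 both in HCT-116 and among the libraries labelled resistant HT-29, beside 0.142, 0.0261 and 0.434 percent, with 2, 3 and 3 at the unadjusted p and 0 by DESeq2 in each. Among the latter libraries CD59 was higher with irradiation by 0.27 on the log2 scale (SE 0.04, adjusted p = 4.91e-05) at 173, 155 and 156 TPM against 134, 130 and 126 TPM. The count for sensitive HT-29 uses the 5-FU libraries on which CD55 was picked, so nothing is read from it for CD55. Beside the low shares of all genes, none of the counts of 0 for added irradiation says much about the members.

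5-FU against uracil in resistant cells called 0 members in each line. The counts were 0 of 7 in DLD-1 and 0 of 8 both in HCT-116 and among the libraries labelled resistant HT-29, beside 0.0138, 0 and 0.00421 percent of all genes, with 3, 0 and 0 members at an unadjusted p under 0.05 and 0 by DESeq2 in each. Beside such low shares, these counts of 0 say little about the members. The difference in 5-FU response between resistant and sensitive cells called 1 of 7 members in DLD-1 (3.12 percent of all genes) and 1 of 8 in HCT-116 (6.11 percent), C1R in both and with opposite signs. At the adjusted p alone, 3 of 7 and 5 of 8 members passed, with no share of all genes taken, so nothing is read from these counts.

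**Figure D5:**
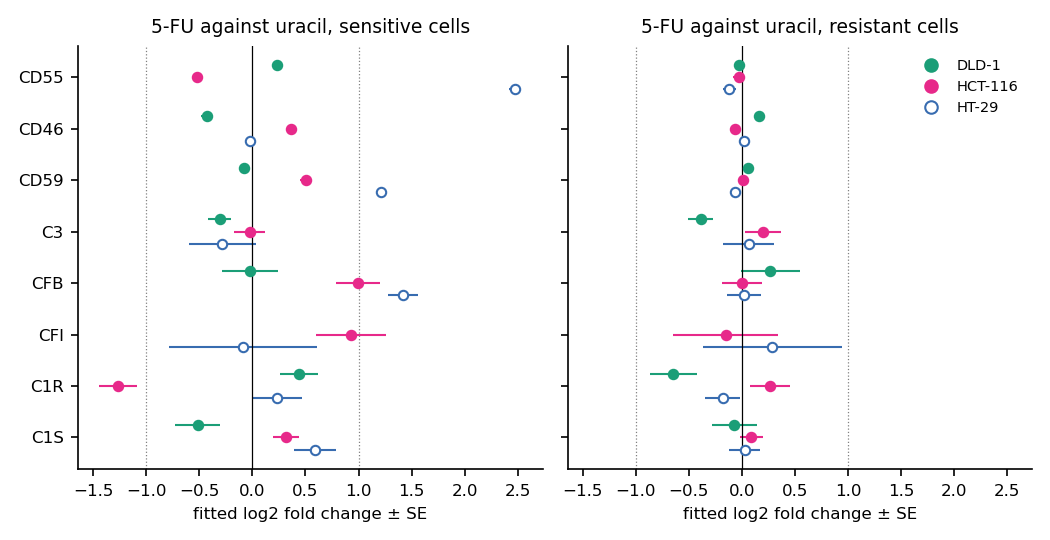
Fitted log2 fold change of each member for 5-FU against uracil, with standard errors, in sensitive cells (left) and resistant cells (right) of each line. Open points are HT-29, where the sensitive contrast is a description and the resistant libraries carry HCT-116 markers, and dotted lines mark 2-fold. In resistant cells every point lies within 2-fold of 0, and in sensitive HT-29 CD55, CFB and CD59 lie at 2.48, 1.42 and 1.21.

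Members differed between resistant and sensitive cells in HCT-116. For resistant against sensitive cells under uracil, 4 of 8 were called in HCT-116 (C3, CFI and C1R lower, CFB higher) beside 11 percent of all genes. The CFI call rests on 4 to 7 counts per resistant library and was lost under most alternatives, as given above. DESeq2 also called 4 members, but CFI was not among them. In DLD-1, 0 of 7 were called with edgeR beside 5.7 percent of all genes, with 2 at an unadjusted p under 0.05 and 0 by DESeq2. The libraries labelled resistant HT-29 against sensitive HT-29 gave 4 of 8 (CD46 lower, C3, C1R and C1S higher) beside 39.4 percent of all genes, a contrast that shares the uracil libraries of the 5-FU contrast. Set against HCT-116 in place of HT-29, the same libraries gave 2 of 8 against sensitive HCT-116 (6.87 percent of all genes) and 0 of 8 against resistant HCT-116 (3.36 percent), with 6 at an unadjusted p under 0.05 and 0 by DESeq2 in the latter. The 2 were C3 (log2 fold change -2.12, adjusted p = 4.06e-15) and CFB (1.09, adjusted p = 3.84e-05), and CFB was not called without replicate 3.

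Basal levels of some members were called different between the sensitive lines, as were those of many other genes. Under uracil, 3 of 8 were called for HCT-116 against DLD-1 (30.7 percent of all genes), 3 of 8 for HT-29 against DLD-1 (30.9 percent) and 5 of 8 for HT-29 against HCT-116 (37.5 percent). Against DLD-1 the member counts were near the share of all genes, so nothing about the members as a set is read from them. HCT-116 had less CD46 than DLD-1 and more CFI (log2 fold change 2.40, SE 0.56, adjusted p = 0.000182, from 19, 16 and 8 counts in HCT-116 against 3, 13 and 1 in DLD-1, and not called without replicate 2) and C1S (1.49, adjusted p = 6.51e-13). CFI did not pass the low-count filter in DLD-1 alone. It was tested here in the model of all 54 libraries, where its counts were highest in sensitive HCT-116, so nothing is read from the CFI call. HT-29, whose uracil libraries are those of the 5-FU contrast that chose CD55, had less C3 and C1R than either line and more CFB. Its C1R was lower than in HCT-116 by a log2 fold change of -3.35 (SE 0.22, adjusted p = 5.79e-19), and its C1S by -1.81 (adjusted p = 3.99e-14). The 5-FU response of HCT-116 minus that of DLD-1 called 2 of 8 members, CFB and C1R (5.31 percent of all genes), and 6 of 8 at the adjusted p alone. No share of all genes was taken for the latter count, so nothing is read from it.

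Scaling by library size alone in place of TMM moved the median of all genes by more than 0.1 on the log2 scale for the drug contrasts in sensitive DLD-1 (by 0.101 and 0.117) and sensitive HT-29 (by 0.157 and 0.163). The shift was -0.106 for the DLD-1 difference in response, 0.263 for the labelled resistant against sensitive HT-29 contrast, and -0.102 and -0.153 for HT-29 against DLD-1 and HCT-116. All fold changes above are relative to the TMM scale.

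Other complement genes were listed by function with earlier results of these data known. Of 57 such genes, 28 passed the filter in DLD-1, 34 did so in HCT-116, and HT-29 had 35. In sensitive DLD-1 under 5-FU 4 were higher and 0 lower, beside 4.02 percent of all genes called. Their median log2 fold change was 0.28 against 0.01 over all genes. In sensitive HCT-116 4 were higher and 1 lower, beside 8.14 percent of all genes (median 0.24 against 0.03). In sensitive HT-29 with 5-FU and irradiation 8 were higher and 1 lower, beside 12.2 percent (median 0.36 against 0.03). Under 5-FU in resistant DLD-1 and HCT-116, 0 were higher and 0 lower in each, beside 0.0138 and 0 percent of all genes, so these counts say little. For resistant against sensitive HCT-116 under uracil 4 were higher and 7 lower, beside 11 percent (median -0.38). For DLD-1 3 were higher and 1 lower, beside 5.7 percent (median 0.19).

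By role, 1 of 8 components of the classical and lectin pathways tested in sensitive DLD-1 was higher under 5-FU and 0 lower, as were 2 of 11 in sensitive HCT-116 with 0 lower. Of 2 further alternative pathway genes and 2 terminal components tested, 0 were higher and 0 lower under 5-FU in either line. In HT-29 with 5-FU and irradiation the counts were 0 of 9, 0 of 2 and 1 of 3 higher and 0 lower. Over all genes, 4.02 percent were called in the DLD-1 contrast, 8.14 percent in HCT-116 and 12.2 percent in HT-29. Of the regulators other than the members, 5 of 13 tested in sensitive HT-29 were higher with 5-FU and irradiation and 0 lower, beside the same 12.2 percent. In resistant against sensitive HCT-116 under uracil, 1 of 12 was higher and 5 were lower, beside 11 percent of all genes. The median log2 fold change of these regulators was -0.94. C4BPB, the beta chain of the C4b-binding protein, went from 6.49 ± 0.595 TPM under uracil to 69.4 ± 2.42 with 5-FU and 66.7 ± 3.08 with irradiation in sensitive HT-29 (log2 fold change 2.97 for the latter, adjusted p = 2.76e-20). In sensitive DLD-1 it rose from 54.5 ± 0.468 to 162 ± 8.01 TPM (log2 fold change 1.47, adjusted p = 9.37e-13), and in resistant DLD-1 the means were 24.8 ± 2.61 and 30.7 ± 1.39 TPM. Its gene lies in the same chromosome 1 cluster as CD55 and CD46. CLU (clusterin, a fluid-phase inhibitor of the membrane attack complex) was at 6.13 ± 2.38, 26.9 ± 1.26 and 29.7 ± 3.75 TPM in sensitive HT-29 (log2 fold change 1.82 with irradiation, adjusted p = 1.36e-16) and at 322 ± 2.97 TPM in sensitive DLD-1 under uracil. CD109, a GPI-anchored protein related to alpha-2-macroglobulin, was at 19.9 ± 1.46 TPM in sensitive and 41.3 ± 1.13 TPM in resistant HCT-116 under uracil (log2 fold change 1.05, adjusted p = 1.79e-13).

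Among 11 receptors, of which 7 were tested in DLD-1 and in HCT-116, 2 were higher and 0 lower under 5-FU in each of these sensitive lines. In HT-29 2 of 8 were higher and 1 lower with 5-FU and irradiation. The shares of all genes called in these contrasts were 4.02 percent in DLD-1, 8.14 percent in HCT-116 and 12.2 percent in HT-29. C5AR1, the receptor for the anaphylatoxin C5a, was higher with treatment in each sensitive line. It rose from 0.794 ± 0.204 to 1.72 ± 0.498 TPM with 5-FU in DLD-1 (log2 fold change 1.32, adjusted p = 0.000500) and from 3.58 ± 0.444 to 7.51 ± 0.301 TPM in HCT-116 (1.15, adjusted p = 1.55e-09). In HT-29 it went from 1.19 ± 0.462 to 3.38 ± 0.513 TPM with 5-FU and irradiation (1.34, adjusted p = 7.74e-06). C1QBP, which binds the globular heads of C1q and resides mainly in mitochondria, fell in HT-29 from 278 ± 15.8 to 152 ± 5.74 TPM with irradiation (-1.13, adjusted p = 1.11e-15). CR2, a receptor for C3d that also lies in the chromosome 1 cluster, was at 4.34 ± 0.197 TPM in sensitive and 2.10 ± 0.0186 TPM in resistant HCT-116 (-1.70, adjusted p = 1.83e-13).

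The genes that build and attach the GPI anchor, on which CD55 and CD59 depend, were not called with 5-FU. Of 29 listed, 28 were tested in each line. With 5-FU against uracil, 0 were higher and 0 lower in sensitive DLD-1 and HCT-116. The same held for 5-FU with irradiation against uracil in those sensitive lines and in HT-29. Of all genes, 5-FU called 4.02 percent in DLD-1 and 8.14 percent in HCT-116. With irradiation 4.61 percent were called in DLD-1, 8.38 percent in HCT-116 and 12.2 percent in HT-29. Beside the low shares in DLD-1, a count of 0 of 28 says little about these genes there. Under 5-FU the anchor genes had a median log2 fold change of -0.17 in DLD-1 (0.01 over all genes) and -0.11 in HCT-116 (0.03). With 5-FU and irradiation in HT-29 it was -0.32, against 0.03 over all genes. MPPE1, a phosphoesterase that remodels the anchor, was lower in resistant than in sensitive DLD-1 under uracil (4.75 ± 0.831 against 11.9 ± 0.277 TPM, log2 fold change -1.29, adjusted p = 5.61e-09).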

How the data were processed

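The libraries were poly(A)-selected, directional and paired. According to the study's methods, the delivered alignments were turned back into reads, which were trimmed with Trimmomatic 0.36, checked with FastQC 0.11.8 and quantified with kallisto 0.44.0 against Ensembl transcripts of GRCh38.p13. For each transcript and gene, the authors deposited an estimated count without normalization and a TPM value scaled for length and depth. Gene values are sums over transcripts. The tables held 0 columns of no sample. Total estimated counts per library give the depth, and intervals and floors cover counting error only.

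The members and gene lists were chosen with earlier results of these data known. Estimated counts were rounded to whole numbers and tested with edgeR 4.0.16 (quasi-likelihood, TMM, filterByExpr) in R 4.3.3, in 1 model of 18 libraries in 6 groups per line, and in 1 model of 54 libraries for comparisons between lines. A gene was called where its adjusted p (Benjamini-Hochberg, all genes tested) was 0.01 or less with an absolute log2 fold change of at least 1. The fitting step was tested on simulated counts. A group at or under 3 counts in every library was taken as at the floor. Alternatives were DESeq2 1.42.0, scaling by library size, testing without the low-count filter, a block for the replicate number, a model of the 2 groups alone, each replicate left out, and, added after seeing the data, a fit without the libraries labelled resistant HT-29. Replicates were compared before averaging, and no pair of 54 was merged (lowest chi-square per degree of freedom 2.31).

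All 8 members were named. Of the other lists, a gene was named if it was called in a comparison within DLD-1 or HCT-116, or in HT-29 for 5-FU with irradiation against uracil, and reached a mean of 5 TPM in a condition, at most the 6 largest per list. The 5 genes most like CD55 and C3 were chosen by Pearson's r over conditions. Some items chosen by these rules are not reported here. Promoters came from a RefSeq table of 35116 windows. Other steps used Python 3.11.15 with pandas 2.3.3, numpy 2.4.6 and matplotlib 3.10.9.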

Additional observations from a re-analysis of the deposited data

Results flagged for a closer look

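The results here stood out because the 5-FU response of a member differed between groups by an interaction term in edgeR with an adjusted p (Benjamini-Hochberg) of 0.01 or less, whatever its size. All values are differences of log2 fold changes, and each group had 3 replicates per treatment. In DLD-1, the response of resistant minus that of sensitive cells was -0.26 for CD55, 0.59 for CD46 and -1.08 for C1R. In HCT-116 the same difference was 0.49 for CD55, -0.43 for CD46, -0.49 for CD59, -0.99 for CFB and 1.53 for C1R. For CD55, CD46 and C1R the sign was thus opposite in DLD-1 and HCT-116, and no test of that contrast between lines was made. Between the sensitive lines, HCT-116 minus DLD-1, the difference was -0.75 for CD55, 0.80 for CD46, 0.59 for CD59, 1.01 for CFB, -1.70 for C1R and 0.83 for C1S.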

How the results depend on the processing

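None of the member counts, the CD55 description or the called fold changes reversed direction under the alternatives run. In sensitive HCT-116 the count called for 5-FU against uracil was 1 and became 2 (CFB added) with library size alone, with only the compared groups and with DESeq2, and was 1 to 2 when each replicate was left out. With irradiation it was 1 and became 3 with library size alone (CFB and CFI added), 2 with only the compared groups and 2 with DESeq2, and 1 to 2 with a replicate left out. The difference in response in HCT-116 called 1 member, 2 with library size alone and with DESeq2 (CFB added), and 1 to 2 with a replicate left out, and that in DLD-1 called 1, and 0 to 1 with a replicate left out. The response of HCT-116 minus DLD-1 called 2, and 1 (CFB lost) with library size alone, no filter, only the compared groups, DESeq2 and a fit without the libraries labelled resistant HT-29, and 1 to 2 with a replicate left out. The libraries labelled resistant HT-29 gave 1 to 2 calls against sensitive HCT-116 and 0 to 1 against resistant HCT-116 (C3 without replicate 2) with a replicate left out. The CD55 log2 fold change for 5-FU in sensitive HT-29 was 2.48, 2.63 with library size alone and 2.49 to 2.57 with a replicate left out. CD55 was picked for that contrast, so nothing is read from its direction or size there under the alternatives. For each of the changes in this paragraph, the cause was not tested beyond the closeness of CFB to 2-fold. CFI against DLD-1 in HCT-116 missed the adjusted p without replicate 2 (0.0103). Over all settings, 254 values that answer a comparison stayed and 33 moved, and of single members 288 stayed and 23 fell below the threshold. Same-numbered replicates did not deviate together in 23 comparisons (correlations -0.06 to 0.07, with every library closest to its own number in 3). No pairing by number was thus found and none was modelled, though 3 replicates per group cannot exclude it. The replicate block lowered the calls between resistant and sensitive HCT-116 from 4 to 3 (CFI) and left the other counts of called members as they were. That CFI call was also lost with DESeq2, with no filter on low counts, with library size alone and without most single libraries. Depth limits CFI, with at most 43 counts per library, and C3 and C1R in sensitive HT-29.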
